A study of Drosophila melanogaster and Nicrophorus vespilloides with 16 samples.

Results

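Trimethylation of lysine 4 of histone H3 (H3K4me3) on Drosophila chromosome 4 was described from every summit on that chromosome in 4 lists of peak summits. A summit is the single base at which a called peak is most enriched. Chaining summits at most 250 bp apart, over the 4 libraries together, gave 121 chromosome 4 regions of 7030 regions on the 6 chromosome arms X, 2L, 2R, 3L, 3R and 4. Genes were assigned from the fly gene table of RefSeq (Release 6), which places 114 genes on chromosome 4, 80 of them protein-coding.

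Chromosome 4, the dot chromosome or Muller element F, is the smallest fly autosome. Most of it is packed as heterochromatin with methylated lysine 9 of histone H3, heterochromatin protein 1 and the chromosome-specific protein POF, yet its genes lie inside this chromatin and many are transcribed. H3K4me3 is placed by the COMPASS family of methyltransferases on nucleosomes just downstream of the starts of active genes.

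The lists came from chromatin immunoprecipitation and sequencing (ChIP-seq) of whole third-instar larvae of the Oregon-R strain, with 4 biological replicates of 30 pooled larvae each and no other genotype or treatment. Per the labels, tissue was fixed in 1% formaldehyde for 10 min, sonicated for 10 min, and 30 µg of chromatin was captured with an H3K4me3 antibody on a Chromatrap solid-state filter. The series was set up to adapt the method to insect tissue, and its 4 beetle libraries and 8 input libraries were not analysed here. A pool of whole larvae mixes all tissues, so fewer cells carrying the mark at a gene and less of the mark per cell cannot be told apart.

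The 4 libraries held 3518 to 5313 summits in all, fewest in replicate 1, and a library with fewer summits may have had fewer reads, since read depth is unknown. Scores are the authors' own and are not scaled between libraries. A score is therefore given as a percentile, the rank of a summit among all summits of its library, where 100 is the highest. On chromosome 4, 85.7%, 55.2%, 62.9% and 47.0% of the summits of replicates 1 to 4 were at most 500 bp from a gene end, compared with 8.43% to 14.3% after a shift of 10 kb in either direction.

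Replicate 1 held 21 chromosome 4 summits, replicate 2 held 58, replicate 3 held 62 and replicate 4 held 83. These were 0.597%, 1.17%, 1.18% and 1.56% of the library. Replicate 1 was the lowest and replicate 4 the highest by both measures, and the counts spanned a wider range than the library totals did. With each library reduced to its 3518 highest scores, the counts were 21, 35, 32 and 37.

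H3K4me3 on chromosome 4 fell into a small set of sites found again and again and a larger set of sites seen once. Of the 121 regions, 19 held a summit from 4 libraries, 18 from 3, 10 from 2 and 74 from 1. The 37 regions found in at least 3 libraries were 30.6% of the chromosome 4 regions, against a background of 60.1% of all 7030 regions and 57.5% to 62.3% on each of the other 5 arms. No replicate exists for this count, since regions are pooled over libraries, so it was not tested. Replicate 1 gave none of the regions seen once, replicate 2 gave 19, replicate 3 gave 17 and replicate 4 gave 38. With any 1 library left out and a summit asked for in at least 2 of the other 3, the number of such regions lay between 37 and 47.

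The sites seen once were mostly weak and mostly lay away from gene ends. Their median percentile was 4.22, against 53.1 for regions found in 3 libraries and 60.3 for regions found in 4. They ranged from 0.113 to 86.4. The highest, in PlexB, lay beside another region of that gene and was kept apart from it by the 250 bp chaining limit. The median distance of the sites seen once from the nearest protein-coding gene end was 1502 bp, and 51 of the 74 were over 1 kb from every such end. The smallest list was almost contained in the larger ones: of the 21 regions of replicate 1, replicates 2, 3 and 4 also held 20, 21 and 20. Of the 83 regions of replicate 4, only 20, 37 and 43 were found in replicates 1, 2 and 3.

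**Figure D1:**
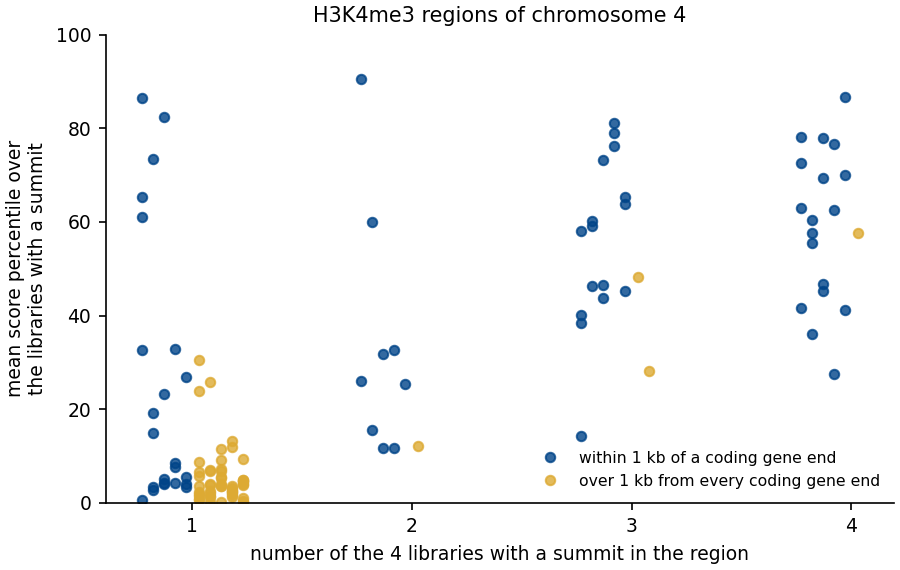
The 121 chromosome 4 regions by the number of libraries with a summit (horizontal axis, points spread sideways for visibility) and by mean score percentile over those libraries (vertical axis). Most of the 74 regions seen in 1 library lie near the bottom, and 51 of them are over 1 kb from a coding gene end, whereas 34 of the 37 regions found in 3 or 4 libraries are within 1 kb.

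The 37 recurrent regions were mostly close to gene ends. From first to last summit they spanned a median of 120 bp, against 100 bp for recurrent regions elsewhere, and at most 337 bp. This span is the spread of summit positions between libraries, limited by the chaining, and not the width of a peak. By their nearest summit, the regions lay at a median of 207 bp from the nearest coding gene end, 29 of them between 80 and 300 bp. A protein-coding gene, whether or not that of the nearest end, held 36 of the 37. Over all summits, recurrent or not, the median distance averaged 401 bp on chromosome 4 and 220 bp on the other arms. Of those summits, 91.8% on chromosome 4 and 93.1% on the other arms lay inside the gene of the nearest end. On chromosome 4, 3 of the recurrent regions were over 1 kb from every coding gene end. The gene table has no strand, so a gene's start and its 3' end were not separated and every distance is to the nearer end. Counting an end where at least 3 libraries had a summit within 1 kb, 39 of the 40 marked genes longer than 2 kb had 1 such end and CG11076 had both.

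Marked genes are those that had, in 3 or 4 of the libraries, a summit no more than 1 kb from one of their ends. By this rule 43 of the 80 protein-coding genes of chromosome 4 were marked, or 53.8%, against a background of 43.9% of 13922 coding genes on the 6 arms. Of the 80, 21 had a summit in 4 libraries, 22 in 3, 1 in 2, 5 in 1 and 31 in none. In 21 of the 22 genes found in 3 libraries the library without a summit was replicate 1. The exception was unc-13, a synaptic vesicle priming factor, whose nearest summits lay 909, 971 and 995 bp away in replicates 1 to 3 and 1015 bp away in replicate 4, just outside the window.

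The share of chromosome 4 coding genes with a summit was 27.5%, 56.3%, 55% and 57.5% in replicates 1 to 4, a mean of 49.1% ± 14.4 (SD, n = 4). On the other arms it was 35.8%, 43.7%, 46.6% and 48.5%, a mean of 43.6% ± 5.58 (SD, n = 4). Chromosome 4 was thus below the other arms in replicate 1 and above them in the other 3 libraries. The difference of 5.42 ± 9.34 percentage points (SD, n = 4) gave p = 0.25 in an exact sign-flip permutation test over the 4 within-library differences, two-sided, a test whose smallest possible p is 0.125 and which therefore cannot pass 0.05. Without replicate 1 the difference was 10.0 points, with equal numbers of summits per library it was 1.31 points (exact permutation p = 0.75), and against the pericentromeric parts of the other arms it was 1.37 points (exact permutation p = 0.5).

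Counting only summits inside the gene span widened the gap. By that count 41 of 80 chromosome 4 genes (51.3%) held a summit in at least 3 libraries, against a background of 32.7%. The within-library difference was 17.1 percentage points (exact sign-flip permutation p = 0.125, the smallest possible). The 130 coding genes in the pericentromeric parts of the other arms, which are also rich in heterochromatin, gave 53.8% by the same count and 52.3% by the count near gene ends. A longer gene has more sequence in which a summit can fall, and the count inside the gene span was not matched for gene length. The length classes given next use the count near gene ends.

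Chromosome 4 genes are long, with a median length of 10.1 kb against 2.15 kb on the other arms, so genes were also compared within classes of length. Among genes under 2 kb, 75% of 4 chromosome 4 genes were marked against 37.4% elsewhere. Among genes of 2 to 5 kb the shares were 71.4% of 14 against 55.5%, and at 5 to 10 kb they were 50% of 22 against 52.0%. Among the 40 genes of at least 10 kb, 47.5% were marked against 35.4%. The mean per-library difference was above 0 in 3 of these classes and was -4.31 points among genes of 5 to 10 kb. It was largest among the 4 genes under 2 kb, at 38.1 points and above 0 in 4 of 4 libraries. A test over 4 libraries cannot pass 0.05, so it decides nothing for any class.

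**Figure D2:**
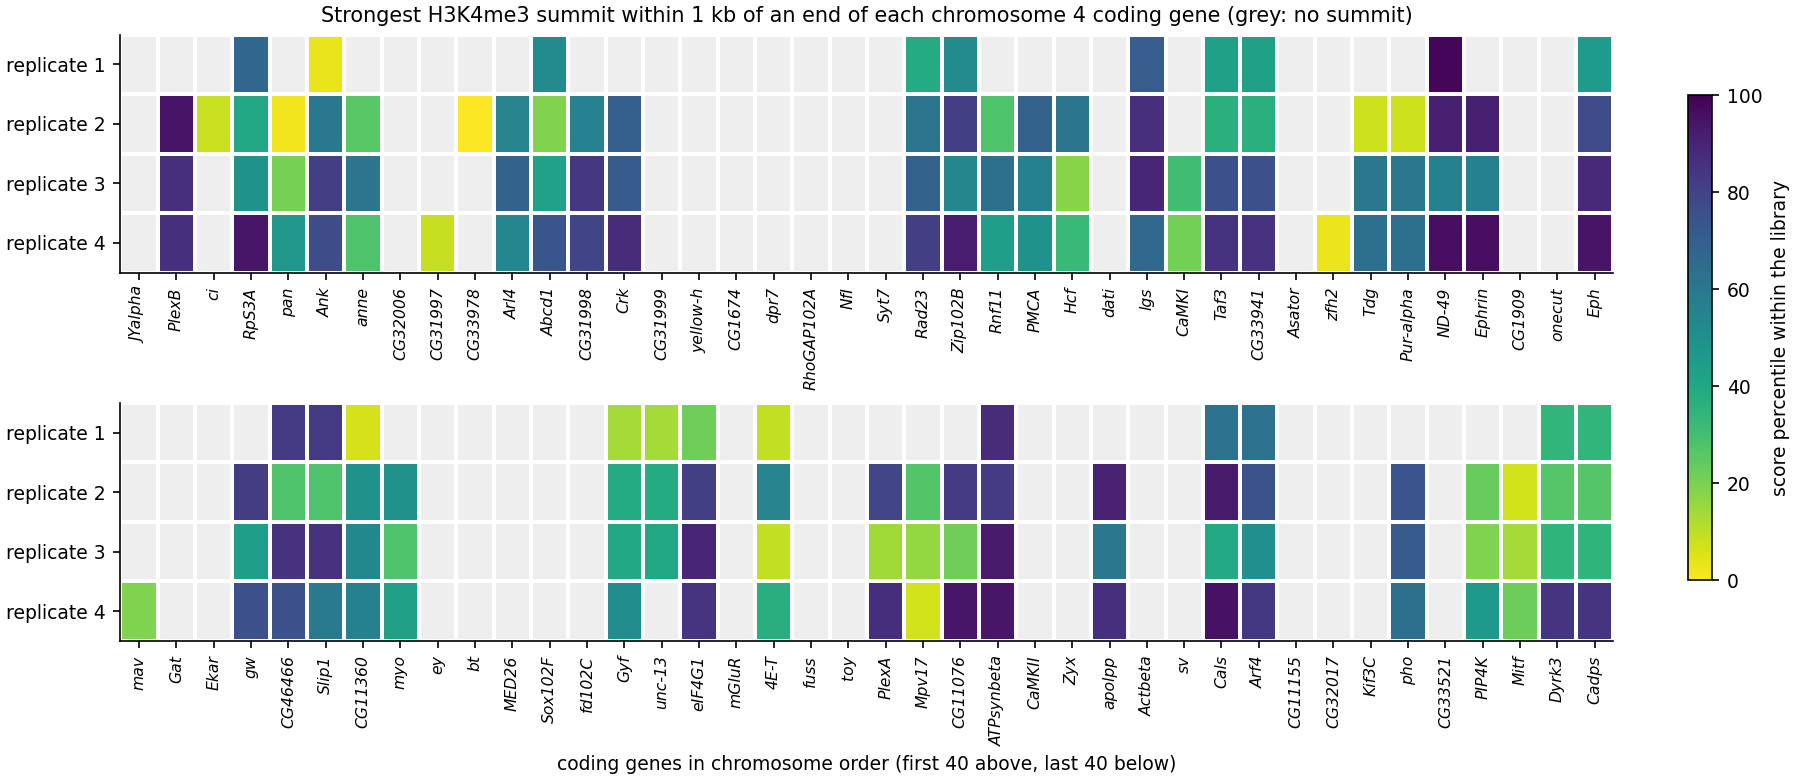
Score percentile (colour, 0 to 100) of the strongest summit within 1 kb of an end of each of the 80 coding genes of chromosome 4, in chromosome order, for the 4 libraries (rows). Grey cells have no summit: 31 genes are grey in every library, 21 genes are coloured in all 4, and replicate 1 is the grey cell in 21 of the 22 genes coloured in 3.

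The highest mean percentiles within 1 kb of a gene end belonged to ATPsynbeta and ND-49, in part through summits inside neighbouring genes. ATPsynbeta, the catalytic beta subunit of the mitochondrial ATP synthase, had a strongest summit at percentiles 87.6, 82.5, 92.9 and 94.2 in replicates 1 to 4, a mean of 89.3 ± 5.36 (SD, n = 4). This was the highest mean and also the smallest spread among the 21 genes with a summit in every library. The region that gave its highest score in 3 libraries, at positions 1030714 to 1030774, lies inside the neighbouring and overlapping gene CG11076. A separate region inside ATPsynbeta, at 1032012 to 1032119, was found in replicates 2, 3 and 4 at 82.5, 22.3 and 35.0. ND-49, a subunit of respiratory complex I, had percentiles of 98.5, 91.1, 56.5 and 96.1, a mean of 85.5 ± 19.6 (SD, n = 4). Replicate 3 was the low one for ND-49 and the other 3 libraries were all above 90. In replicates 2 to 4 these values are those of a summit inside the neighbouring gene Ephrin. The region inside ND-49 had a mean of 78.0, but only its replicate 1 summit lay within 1 kb of an end. In replicates 2 to 4 its summits lay 1305, 1064 and 1010 bp away, outside the window. With near-end summits inside ND-49 alone, the gene stood at 98.5 in replicate 1 and 5.56 in replicate 3. Replicates 2 and 4 had no such summit.

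Summits inside the gene itself gave the next values. The Wingless pathway coactivator lgs (legless) stood at 70.8, 86.5, 89.1 and 66.4, a mean of 78.2 ± 11.3 (SD, n = 4). Those summits formed 1 region inside the gene at 443597 to 443802, 109 bp from the end at the nearest, and a weaker region in lgs was seen in replicate 4 alone. Eph, the receptor tyrosine kinase that binds ephrins in axon guidance, stood at 45.7, 77.5, 88.3 and 94.8 with a mean of 76.6 ± 21.8 (SD, n = 4). Its membrane-bound ligand gene Ephrin was marked in 3 libraries, at 91.1, 56.5 and 96.1 in replicates 2 to 4, with no summit within 1 kb in replicate 1. Receptor and ligand genes were thus both high in replicates 2 and 4. The values of Ephrin equal those of ND-49 in these 3 libraries because a single summit, inside Ephrin, lies within 1 kb of both genes. Cals, the synaptic cadherin-like protein calsyntenin, stood at 62.8, 92.9, 39.5 and 95.5 with a mean of 72.7 ± 26.6 (SD, n = 4).

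Among the 21 genes with a summit in every library, the others of the 10 highest means were general cell-function genes and genes with little annotation. Zip102B, a zinc transporter of the ZIP family, stood at 52.1, 81.6, 53.7 and 92.5 (mean 70.0 ± 20.2, SD, n = 4). The translation initiation scaffold eIF4G1 stood at 22.1 in replicate 1 and at 81.6, 89.2 and 84.9 in the others (mean 69.5 ± 31.7, SD, n = 4). Arf4, a small GTPase of vesicle traffic, stood at 62.8, 74.8, 50.4 and 83.9 (mean 68.0 ± 14.6, SD, n = 4). The replicate 1 value of Arf4 is that of the Cals summit, and with summits inside Arf4 alone it was 21.1 there, with a mean of 57.6 ± 28.1 (SD, n = 4). For both Zip102B and Arf4 replicate 4 was the highest, and for eIF4G1 replicate 1 stood apart below the rest. CG46466 stood at 83.1, 27.9, 85.8 and 75.8 (mean 68.2 ± 27.2, SD, n = 4). Its neighbour Slip1, named as a partner of the Slowpoke potassium channel, stood at 83.1, 27.9, 85.8 and 59.1 (mean 64.0 ± 26.9, SD, n = 4). The strongest summit of this pair was the same position in 3 of the 4 libraries, and replicate 2 was low for both. CG46466 took its value from Slip1 in replicates 1 and 3 and from gw in replicate 4, and with summits inside CG46466 alone it stood at 50.1, 27.9, 27.3 and 59.1 (mean 41.1 ± 16.0, SD, n = 4). Slip1 took its value from CG46466 in replicates 2 and 4, and on its own summits its mean was 47.9 ± 43.3 (SD, n = 4).

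Replicate error was large beside the differences between genes. Of the 21 genes with a summit in every library, 15 had a mean percentile over 50 and 4 over 75, while the standard deviation over libraries was above 20 points in 15. The widest spread was at Ank, the ankyrin that ties spectrin to membrane proteins, with 3.45, 60.02, 81.3 and 77.3 (mean 55.5 ± 35.9, SD, n = 4). The order among the 10 highest genes therefore does not separate neighbours beyond their spread. RpS3A, the only cytoplasmic ribosomal protein gene among the listed genes, ranked below them at 67.3, 40.5, 49.5 and 94.5 (mean 62.9 ± 23.8, SD, n = 4), with a region at 66725 to 66981.

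The coding genes were then grouped by role. The lists were chosen with earlier results of these data known, so the counts are a description beside the 43 of 80 for all chromosome 4 coding genes, whose median percentile was 19.8 with absence counted as 0. Of 16 genes of translation, energy supply and housekeeping, 14 were marked, 10 of them in all 4 libraries, and the median of their mean percentiles was 53.1. Besides ATPsynbeta, ND-49, eIF4G1 and RpS3A these include Rad23, a carrier of ubiquitinated proteins to the proteasome, and gw (GW182), the effector of microRNA silencing. Rad23 stood at 38.9, 61.2, 68.4 and 81.3 (mean 62.5 ± 17.8, SD, n = 4). The 2 without a summit near an end were JYalpha, an alpha subunit of the sodium and potassium pump needed in sperm, and Asator, a tau-tubulin kinase relative.

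Of 18 transcription factors and chromatin proteins 6 were marked and 10 had no summit near an end in any library, with a median percentile of 0. The marked ones were lgs, pan, pho, Mitf, Hcf and Taf3. Taf3, a TFIID subunit whose mammalian counterpart binds H3K4me3, stood at 43.2, 36.7, 75.6 and 85.9 (mean 60.3 ± 24.1, SD, n = 4). The Polycomb-group DNA-binding protein pho stood at 73.5, 71.5 and 63.5 in replicates 2 to 4. pan, the TCF factor of Wingless signalling, was found in the same 3 libraries at 2.32, 20.9 and 47.1. Thus the Wingless factors lgs and pan lay apart, with lgs higher than pan in every library.

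The unmarked transcription factors are mostly regulators of tissue identity. The Pax6 eye genes ey and toy, the Pax2 gene sv, onecut, Sox102F, NfI, dati, fuss and fd102C had no summit within 1 kb of an end in any library. ci, the Hedgehog effector, had a summit in replicate 2 only, at percentile 8.38 and 998 bp from the end, with another 1028 bp away in replicate 4. zfh2, a zinc-finger homeodomain factor, had a summit in replicate 4 only, at 2.80. The Mediator subunit gene MED26 also belongs to the unmarked group by this rule, though a strong region lay deeper inside it, as given below.

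Of 13 listed neuronal and synaptic genes 7 were marked, or 53.8%, against 53.8% of all chromosome 4 coding genes. The list is not complete. CaMKII, a kinase of synapses described below, was in no list and was unmarked, so the share depends on which genes were listed. Marked members besides Eph, Ephrin and Cals were the semaphorin receptors PlexA and PlexB and the vesicle release factors unc-13 and Cadps. The near-end summits of unc-13 lay inside the neighbouring gene Gyf and those of Cadps inside Dyrk3, none inside the genes themselves. PlexB stood at 94.9, 86.4 and 86.1 in replicates 2 to 4, and PlexA at 79.3, 14.4 and 86.7, both with no summit in replicate 1. The group thus held receptors near the top of the chromosome beside genes without a summit near an end, namely Syt7, mGluR, the kainate-type receptor Ekar, the GABA transporter Gat and Kif3C. CaMKI had summits in replicates 3 and 4 only, at 30.8 and 21.3.

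In the list of ligands and signalling proteins 4 of 7 were marked, namely Crk, myo, PMCA and Pur-alpha. PMCA and Pur-alpha were placed in this list although neither is a ligand. The strongest summits of Pur-alpha lay inside the neighbouring Tdg, and it had a near-end summit of its own in replicate 3 only. Crk, an SH2 and SH3 adaptor, was the highest of the list at 70.1, 71.2 and 87.5 in replicates 2 to 4. Of the TGF-beta family ligands on the chromosome, myo (myoglianin) was marked at 49.9, 28 and 42.6 in the same libraries. mav (maverick) had a summit in replicate 4 only, at 19.3, and Actbeta, the activin ligand, had none. The 3 ligand genes thus differed in the number of libraries, 3, 1 and 0. Of 5 muscle and extracellular genes 2 were marked, and apolpp, the precursor of the main lipid carrier of the haemolymph, was the higher at 90.4, 60.5 and 86.1. Its summits lay outside the gene, in the neighbouring Zyx. bt, the giant muscle protein projectin, and yellow-h had no summit near an end. Of the 21 coding genes in no list, 10 were marked.

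Some marked genes shared their summits. In 5 neighbouring pairs of marked genes the strongest summit was the same position in each library where both had one: Taf3 and CG33941, Tdg and Pur-alpha, ND-49 and Ephrin, Gyf and unc-13, and Dyrk3 and Cadps. In all, 17 of the 43 marked genes shared their strongest summit with another marked gene in at least 1 library, and 26 did not. The 43 genes drew their strongest summits from 46 regions. For unc-13, apolpp and Cadps no library had a near-end summit inside the gene itself. In 36 of the 43 marked genes at least 3 libraries had one.

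In other pairs each gene had its own recurrent region beside the facing ends. Of 45 pairs of neighbouring coding genes that overlap or lie at most 2 kb apart, 6 had a recurrent region in both genes within 1.5 kb of the ends that face each other, 11 in one and 28 in neither. None of the 45 had a recurrent region in the sequence between the genes. The 6 pairs were Zip102B and Rnf11, Taf3 and CG33941, ND-49 and Ephrin, CG46466 and Slip1, CG11076 and ATPsynbeta, and Cals and Arf4. In them the regions lay 981 to 1561 bp apart, with a median of 1295 bp. At ND-49 and Ephrin, for example, one region spanned 570249 to 570585 inside ND-49 and was found in all 4 libraries, at 98.5, 43.5, 75.4 and 94.5, and the other spanned 571959 to 571997 inside Ephrin.

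Summits far from gene ends took a larger share on chromosome 4 in each library. Replicates 1 to 4 held 1, 12, 18 and 36 chromosome 4 summits over 1 kb from every coding gene end, or 4.76%, 20.7%, 29% and 43.4% of the chromosome's summits (mean 24.5% ± 16.1, SD, n = 4). On the other arms the share was 4.71% ± 1.95 (SD, n = 4). Chromosome 4 was higher in 4 of 4 libraries, by 19.8 ± 14.2 percentage points (exact sign-flip permutation p = 0.125, the smallest possible), least in replicate 1 and most in replicate 4. The difference was 10.8 points with scores of at least 5 and 6.15 points with equal numbers of summits. Against the pericentromeric parts of the other arms, at 19.7% ± 7.84, it was higher in 3 of 4 libraries by 4.76 points (exact permutation p = 0.5). The median distance followed, at 226, 381, 323.5 and 674 bp on chromosome 4 (401 ± 193, SD, n = 4) and 220 ± 16.4 bp elsewhere. That difference of 181 ± 187 bp (exact permutation p = 0.125) was 93.8 bp without replicate 4, and 57.6 bp with scores of at least 5. Against the pericentromeric parts, at 335 ± 28.9 bp, it was 66.4 ± 216 bp (SD, n = 4, exact permutation p = 0.75). Chromosome 4 was higher than those parts in 2 of 4 libraries and lower in 2.

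**Figure D3:**
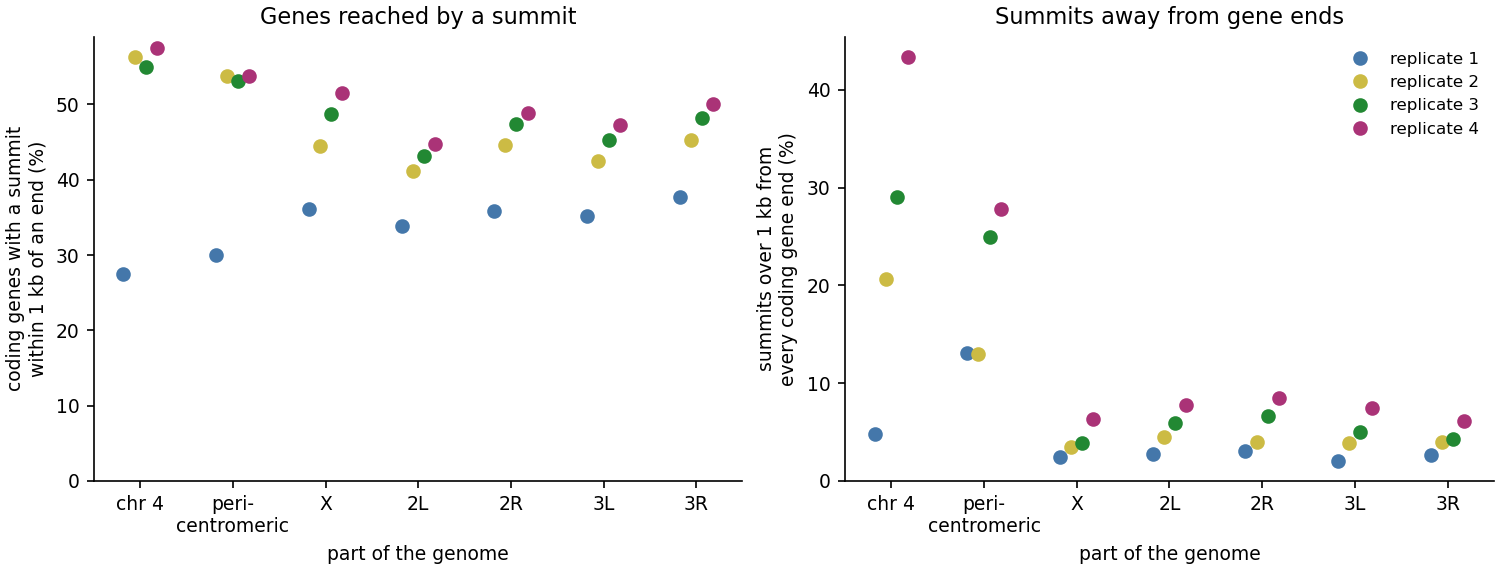
Share of coding genes with a summit within 1 kb of an end (left, percent) and share of summits over 1 kb from every coding gene end (right, percent), for chromosome 4, the pericentromeric parts of the other arms and each other arm; points are the 4 libraries. On the left chromosome 4 runs from 27.5% to 57.5% and overlaps the other arms, and on the right it runs from 4.76% to 43.4% and exceeds every other arm in replicates 2 to 4.

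The arms differ in gene spacing, so summits were also counted per megabase of sequence near and away from gene ends, a comparison added after seeing the data. Sequence within 1 kb of a coding gene end makes up 21.0% of chromosome 4, 24.9% of the other arms and 3.12% of their pericentromeric parts. Near gene ends chromosome 4 held 74.8, 172, 165 and 176 summits per Mb (147 ± 48.2, SD, n = 4) and the other arms 137 ± 21.9, a difference smaller than the spread (exact permutation p = 0.625). Away from gene ends it held 0.997, 12, 17.9 and 35.9 per Mb (16.7 ± 14.6, SD, n = 4), and the other arms 0.926, 1.96, 2.70 and 3.83 (2.35 ± 1.22, SD, n = 4). The far density was higher in 4 of 4 libraries, 7.09 times as high in the mean, and almost equal in replicate 1 (exact permutation p = 0.125, the smallest possible). It was 13.8 times that of the pericentromeric sequence, at 1.21 ± 0.717 per Mb. That sequence holds 14.1 Mb away from gene ends and 0.454 Mb near them, and the ratio was not matched for the share of sequence inside genes. Against the euchromatic parts of the other arms alone the far density was higher in 3 of 4 libraries (exact permutation p = 0.25).

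List length moved with this result. With the 3518 highest scores of each library the far density was 2.74 per Mb on chromosome 4 and 0.781 elsewhere, 3.51 times as high, again in 4 of 4 libraries. The chromosome 4 values rest on only 1, 5, 2 and 3 summits in replicates 1 to 4, and replicate 1 stood at 0.997 against 0.926. Against the euchromatic parts alone the density with equal numbers was higher in 3 of 4 libraries (exact permutation p = 0.25). Within genes of at least 10 kb, 1, 6, 9 and 14 of 40 chromosome 4 genes held a summit over 1 kb from their ends, or 18.8% ± 13.6 (SD, n = 4), against 6.39% ± 3.61 of 1936 genes elsewhere (exact permutation p = 0.125). In the 57 such genes of the pericentromeric parts the share was 5.70% ± 3.62 (SD, n = 4). With equal list lengths the shares were 3.75% on chromosome 4, 2.23% on the other arms and 2.19% in the pericentromeric parts. Chromosome 4 was then higher than the other arms in 3 of 4 libraries, and its shares rest on 1, 3, 1 and 1 genes. The part of list length in the difference was not tested beyond these values.

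**Figure D4:**
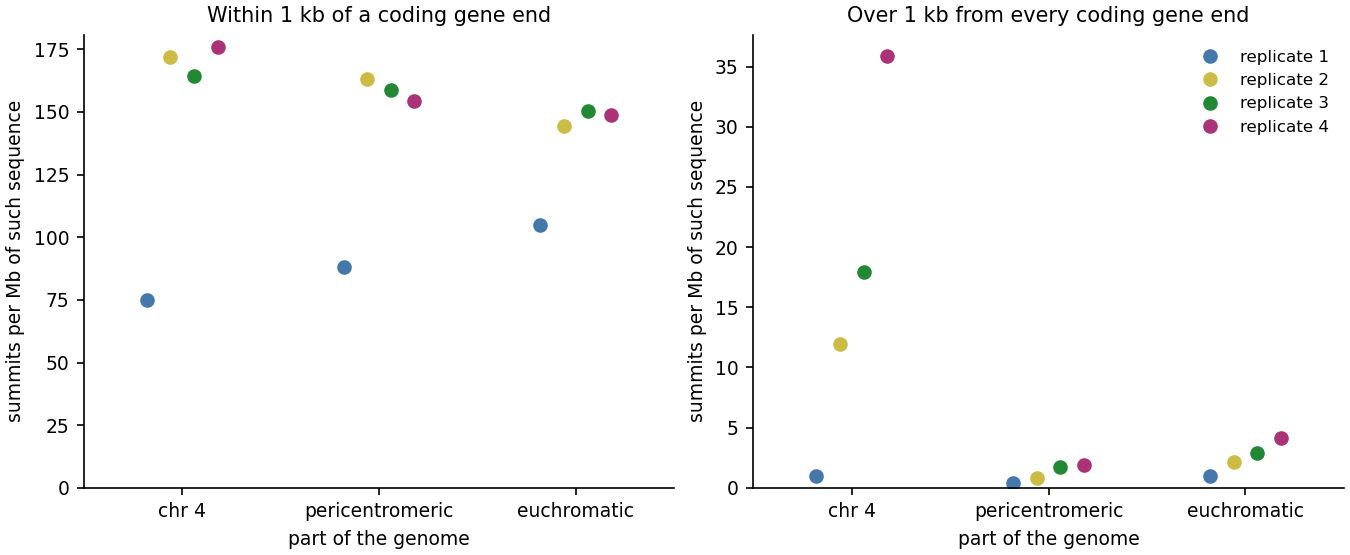
Summits per Mb of sequence within 1 kb of a coding gene end (left) and over 1 kb from every such end (right) for chromosome 4 and for the pericentromeric and euchromatic parts of the other arms; points are the 4 libraries. Near gene ends the 3 groups overlap, and away from them chromosome 4 runs from 0.997 in replicate 1 to 35.9 in replicate 4 while the other groups stay at or below 4.15.

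The far summits were mostly weak and single. Of the regions over 1 kb from every coding gene end, 51 were seen in 1 library, with a median percentile of 3.77 and a highest value of 30.4, and 50 of these 51 lay inside a coding gene. Replicate 4 alone gave 30 of them, replicate 3 gave 13 and replicate 2 gave 8. Gyf, a translational repressor of the GIGYF family, held 5 such regions, and anne and MED26 held 3 each. Of the other genes without a marked end, onecut, bt, Asator, CaMKI and CaMKII held 2 each, and Sox102F, zfh2, CG33978 and Zyx held 1 each.

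A few far regions recurred, and MED26 had the strongest of them. MED26, a subunit of the Mediator complex that links transcription factors to RNA polymerase II, had a region at 787210 to 787517, at least 1461 bp from the gene's end. It was found in all 4 libraries at 36.2, 47.1, 61.0 and 86.2. No summit lay within 1 kb of an end of MED26 in any library. CaMKII, the calcium and calmodulin dependent kinase of synapses and muscle, had a region at 1051128 to 1051194, at least 2509 bp inside the gene, at 44.6, 31.4 and 8.69 in replicates 2 to 4. The region at 959964 to 960020, 1572 bp or more from 4E-T, lay in no coding gene but within the antisense RNA gene asRNA:CR44030, at 55.5, 1.38 and 87.8 in replicates 2 to 4. Its score thus ranged from nearly the lowest of a library to the upper part of another. CaMKI held a region over 1 kb from an end in replicates 3 and 4, with a mean percentile of 12.2.

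Taken over all summits, scores on chromosome 4 ranked below those of the other arms in 4 of 4 libraries. The median percentile of chromosome 4 summits was 43.2, 44.0, 33.9 and 22.4 in replicates 1 to 4 (35.9 ± 10.1, SD, n = 4), against 50.1 on the other arms. The difference was -14.3 ± 10.2 points (exact permutation p = 0.125, the smallest possible), and with equal list lengths it was higher by 0.476 points (exact permutation p = 1). Against the pericentromeric parts of the other arms, at 41.5 ± 13.5, the difference was -5.65 ± 19.9 points (SD, n = 4, exact permutation p = 0.625). There chromosome 4 was lower in 3 of 4 libraries and higher by 21.7 points in replicate 1. Near gene ends the median percentile was 51.9 ± 5.37 on chromosome 4 and 51.7 elsewhere, and away from them it was 13.8 ± 15.3 and 18.7 ± 8.35 (SD, n = 4). Summits below the percentile of 10 made up 26.5% ± 12.3 of those on chromosome 4 against 9.77% elsewhere, and summits above 90 made up 5.43% against 10.1%. A chromosome 4 summit was found within 250 bp in another library in 100%, 67.2%, 72.6% and 54.2% of cases, a mean of 73.5% ± 19.3, against 91.1% ± 3.03 elsewhere (SD, n = 4; exact permutation p = 0.25). The difference of -17.6 points was -5.85 with scores of at least 5 and -1.87 with equal numbers of summits (exact permutation p = 0.625). Against the pericentromeric parts, at 81.6% ± 6.26, it was -8.08 ± 16.3 points (SD, n = 4, exact permutation p = 0.375). Chromosome 4 was lower than those parts in 3 of 4 libraries.

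**Figure D5:**
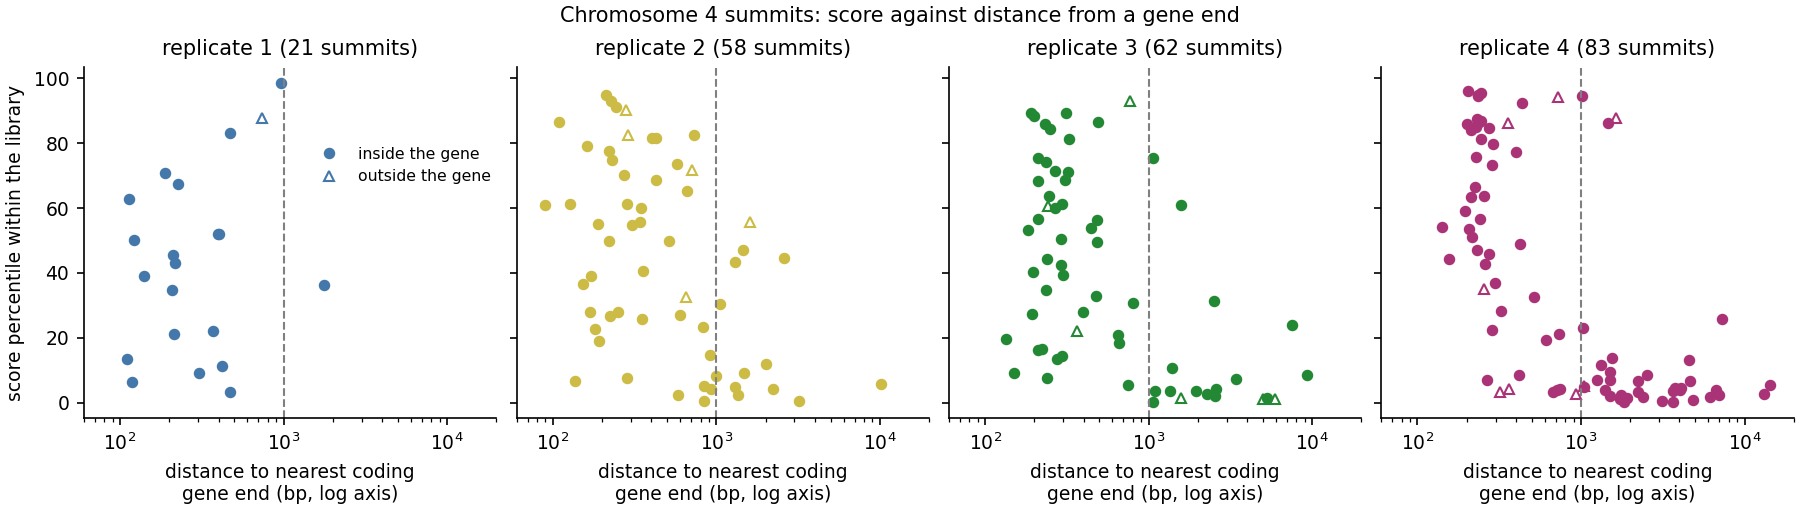
Distance of each chromosome 4 summit from the nearest coding gene end (horizontal log axis, bp) and its score percentile within its library (vertical axis), one panel per library, with 21, 58, 62 and 83 summits; filled points lie inside the gene of the nearest end, triangles outside, and the dashed line marks 1 kb. Summits left of the line spread over the whole range of scores, and most summits right of it lie near the bottom, with 1, 12, 18 and 36 of them in replicates 1 to 4.

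Along the chromosome the regions left wide empty stretches. Between the first summit at 42724 and the last at 1261624, 10 stretches of at least 40 kb held no summit of any library, and together they covered 610 kb or 50.01% of the span of 1219 kb. They held 19 whole coding genes. Empty stretches were not counted on the other arms, so these are not shown to be particular to chromosome 4. The longest, from 213485 to 308233 (94.7 kb), held CG31999, yellow-h, CG1674, dpr7, RhoGAP102A, NfI and Syt7. The next, from 362488 to 438287 (75.8 kb), held dati whole. The stretch from 695795 to 762093 (66.3 kb) held ey and that from 960020 to 1022463 (62.4 kb) held fuss and toy, so the Pax6 pair lay in separate empty stretches. The marked genes unc-13 and apolpp also lay whole in such stretches, and their summits stood just outside their own ends. At the proximal end no summit lay before 42724, a stretch that held JYalpha.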

How the data were processed

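The authors deposited a separate list of summits for each fly H3K4me3 library, with no pooling. The submitters' processing notes name BWA 0.7.17, MACS2 without a version, and cutadapt 1.16, SAMtools 1.9, FastQC 0.11.7 and Picard 2.17.11. How MACS2 was set, which build was used and how the inputs entered are not stated there. Scores in the deposited lists look like MACS2's −log10 values, of a p-value or of a q-value; the sources do not say which.

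Positions are the deposited ones, written 1-based, and matched Release 6 genes on these data. Scores were ranked within each library, a gene took its strongest summit within 1 kb of an end, whether inside that gene or a neighbour, and the mean of a gene counts absence as 0. The plan asked for distances to gene starts where strand was known; the gene table gives none, so both ends were used. Pericentromeric boundaries are approximate. Of 67 listed symbols 62 matched, giving 59 genes. Differences between chromosome 4 and the other arms were taken within a library and tested by an exact sign-flip permutation over 4 libraries (16 flips). No summit of one list recurred in another with both the same position and the same score. The steps were tested on simulated summits.

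The members and gene lists were chosen with earlier results of these data known, and the results on summits over 1 kb from gene ends were added after seeing the data. Genes were named by a rule: the 10 highest mean percentiles among genes with a summit in all 4 libraries, genes with a summit in 1 or 2 libraries or none, the largest and smallest spread, the highest marked and all unmarked members of the lists, and regions over 1 kb from a gene end. Other genes were named with their values known. The alternatives tried were other windows, chaining distances, numbers of replicates and score limits, equal numbers of summits, each replicate left out, parts of the other arms and classes of gene length. Scripts ran in Python 3.11.15 with pandas 2.3.3, numpy 2.4.6 and matplotlib 3.10.9.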

Additional observations from a re-analysis of the deposited data

Results flagged for a closer look

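In 2 of 18 groups of 4 values examined, 1 library stood apart from the others by Dixon's criterion, where the gap to the nearest value divided by the whole range exceeds the 95% critical value. Chance alone flags about 1 in 20 such groups.

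The share of chromosome 4 coding genes with a summit within 1 kb of an end was 27.5% in replicate 1 and 55% to 57.5% in the other libraries, a ratio of 0.917. Replicate 1 also had the fewest summits, 3518 in all and 21 on chromosome 4, and with the 3518 highest scores of each library the shares were 27.5%, 37.5%, 42.5% and 47.5%.

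The percentile of the strongest summit at eIF4G1 was 22.1 in replicate 1 and 81.6 to 89.2 in the other libraries, a ratio of 0.886.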

How the results depend on the processing

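No paired analysis was possible because only 1 labelled group was used, so replicate numbers pair no groups; the differences between arms are already taken within each library. Of the alternative values, 90 kept their direction and, for counts, stayed within 1.5 times the reported one. Marked genes numbered 12 with a window of 250 bp and 21 when all 4 libraries were asked for, and regions numbered 19 in all 4 libraries. The difference in the share of genes with a summit was -0.600 points with a window of 250 bp and -4.31 among genes of 5 to 10 kb, and the difference in median percentile was 0.476 with equal numbers of summits; the cause was not tested. Leaving out each library gave 43 to 44 marked genes, 37 to 47 regions, differences of 3.04 to 10.0 points in genes with a summit (10.0 without replicate 1), -17.0 to -9.74 in median percentile, 93.8 to 237 bp in median distance, -24.4 to -12.7 points in summits shared, 14.3 to 25.6 points in summits over 1 kb from gene ends, 8.48 to 16.4 points in long genes with such a summit, 8.44 (without replicate 4) to 19.1 summits per Mb away from gene ends and 3.66 to 22.7 near them. With scores of at least 5 the far difference was 4.95 per Mb. Read depth is unknown, a test over 4 libraries cannot pass 0.05, and starts and 3' ends were not separated.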

Other observations

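The noncoding genes of chromosome 4 take little part in the recurrent pattern. The table lists 14 lncRNA, 10 antisense RNA, 7 pseudogene, 2 miRNA and 1 snoRNA genes there. Of the 37 regions found in at least 3 libraries, those inside a noncoding gene lay in lncRNA:CR43958, where the region at 557570 to 557599 is also inside Tdg, and in asRNA:CR44030. Without strand the mark at a gene and at an antisense gene over the same sequence cannot be told apart.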
